A study of Danio rerio with 6 samples.

Results

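The immediate early genes described here are fosaa, fosab, fosb, junba, junbb, egr1, egr2a, ier2a, ier2b and atf3, and they were taken by gene name from the expression table of zebrafish larvae with a mutated p2ry11 gene and of their WT siblings. Of the 10 genes, 8 had a row of that name among the 19071 genes listed, and all 8 passed the filter on low values. No row was named fosb or ier2b. The gene ID of ier2b was listed under the name IER2, so its values are given beside those of ier2a but are not counted among the 8. The study asked what loss of P2RY11, a purinergic receptor of the cell surface, does to larvae. RNA was taken at 3 days post fertilization from pools of whole larvae kept in E3 medium with methylene blue, with 3 libraries from the knockout genotype and 3 from the WT genotype. The mutants came from a single founder line in which Cas9 had made a small frameshifting deletion in p2ry11, and both groups had the same age, medium and tissue. In bulk RNA of whole larvae, fewer cells of a type and less RNA per cell cannot be told apart.

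Immediate early genes are transcribed within minutes of a stimulus, without new protein synthesis, when MAP kinases act on SRF and its ELK partners or when cyclic AMP and calcium act on CREB. Most of their transcripts are short-lived, and many of their products are transcription factors. FOS and JUN proteins pair to form AP-1, EGR proteins bind GC-rich sites through zinc fingers, and ATF3 is a stress-induced factor related to both AP-1 and CREB. In zebrafish larvae their transcripts are widely used as marks of recent neuronal activity, and they also rise after handling, wounding and heat.

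Expression was given as FPKM, fragments scaled to transcript length and to the mapped fragments of the library, which allows levels to be compared between genes. For WT sibling replicates 2 and 3 no unit was stated, and their values were taken as FPKM. Differences are mutant minus WT sibling on the log2(FPKM + 1) scale, which understates the change of low genes. They were tested with limma over the 18432 genes with a mean of at least 0.5 FPKM and called at a Benjamini-Hochberg adjusted p under 0.05. A 2-sided exact permutation test of mean FPKM is also given, and with 3 libraries against 3 it cannot go below p = 0.1. Whether the 3 pools per genotype were separate clutches is not in the labels, and p-values then measure only the spread between these pools. The mutated gene itself matched the labels, since p2ry11 measured 0.707, 0.853 and 1.02 FPKM in the WT siblings and was listed at 0 in the 3 mutants (exact permutation p = 0.1). WT sibling replicate 3 stood apart. Its profile correlated at 0.965 to 0.968 with the other WT siblings, against at least 0.990 among the mutants, and 1261 genes lay more than 1 log2 unit from the other WT siblings, against 46 to 178 in the other libraries. The median gene was 3.81 to 4.84 FPKM in WT siblings and 5.10 to 5.39 FPKM in mutants, and the median log2 difference of all genes tested was 0.16. It became 0.012 after median-of-ratios scaling, which sets the libraries to a common median ratio. All 12 marker lists of cell types were detected, with none of the matched markers at 0. The summed red blood cell markers were 3806 to 5120 FPKM in WT siblings and 1460 to 1635 FPKM in mutants, and all 6 of them fell. Marker sums without overlap were also lower for skeletal muscle, at 22213 to 24251 FPKM against 16934 to 19734 FPKM, with 0 of 8 markers called. Lens sums were lower, at 1581 to 2018 FPKM against 1391 to 1430 FPKM, with 1 of 5 markers called higher and 1 lower. Vascular endothelium was higher, at 34.2 to 39.4 FPKM against 43.4 to 44.1 FPKM, with 1 of 5 called higher. Heart muscle summed to 103 to 122 FPKM against 90.1 to 98.1 FPKM, with 1 of 6 called lower. Of all genes tested, 8.23% were called higher and 3.98% lower. Summed neutrophil markers were 126 to 173 FPKM against 74.5 to 95.7 FPKM, with 1 of 5 called lower. Liver markers summed to 2812 to 3154 FPKM against 1906 to 2169 FPKM, with 2 of 6 called higher and 3 lower, while neuronal markers summed to 615 to 638 FPKM against 630 to 637 FPKM. Macrophage, photoreceptor and cartilage markers had 0 calls, and 1 of 7 epidermis markers was called lower. For single genes, every mutant library was above every WT sibling library in 35.0% of those tested and below in 11.7%. The part of the shifts in marker sums in the results on immediate early genes was not tested.

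Of the 8 immediate early genes, egr1 rose in the mutants and none of the other 7 was called in either direction. The 1 call among 8 genes is 12.5% of them, and 8.23% of all genes tested were called higher and 3.98% lower, so the share of members called was near the background. The thresholds that the study set (fold of mean FPKM above 1.5 with an unadjusted p under 0.05) were also applied, with p from limma. By them egr1 was again the 1 member called, against 15.0% of all genes higher and 4.73% lower. These shares come from the limma fit and are not the study's own counts. It was also the 1 member with every mutant library above every WT sibling library, which held for 35.0% of all genes, and no member lay wholly below, against 11.7% of all genes. After median-of-ratios scaling egr1 was still the 1 member wholly above, against 21.1% of all genes, and none lay wholly below, against 21.2%. The median log2 difference of the 8 was 0.074, which is below the 0.16 of all genes, and 5 of the 8 were above 0. At an unadjusted p under 0.05 by limma, 1 of the 8, or 12.5%, was higher and 0 were lower, against 26.0% and 9.21% of all genes.

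**Figure D1:**
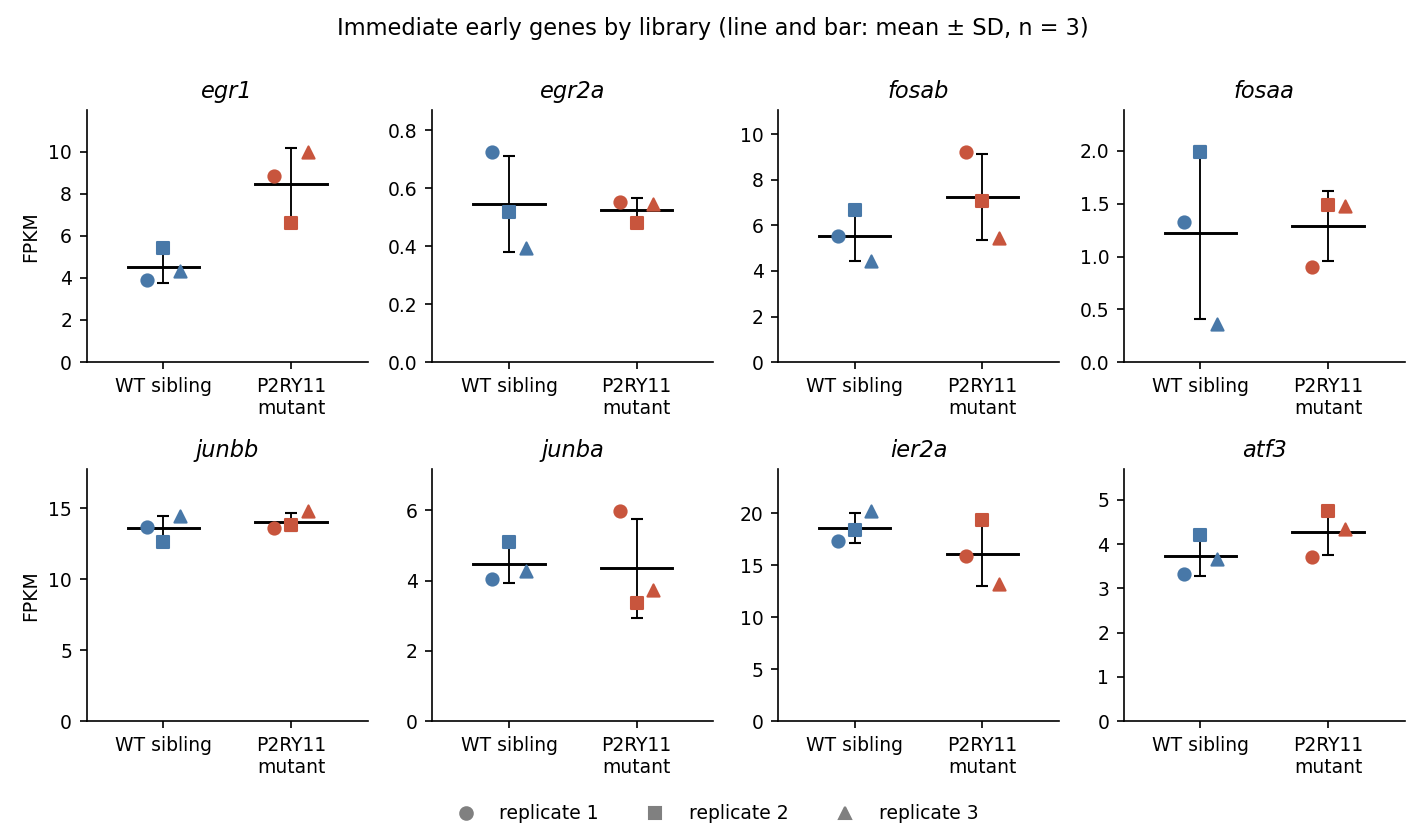
FPKM of the 8 immediate early genes in each library, with WT siblings and mutants drawn as separate points, a line at each group's mean and an error bar of 1 SD (n = 3). The groups are apart for egr1, where WT siblings lie between 3.88 and 5.41 FPKM and mutants between 6.60 and 9.97 FPKM, and overlap for the other 7.

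The gene egr1 (ENSDARG00000037421) encodes a zinc finger transcription factor that is induced by growth factors, neuronal activity and wounding. It measured 3.88, 5.41 and 4.33 FPKM in WT sibling replicates 1, 2 and 3 and 8.82, 6.60 and 9.97 FPKM in mutant replicates 1, 2 and 3. All 3 mutants were above all 3 WT siblings, and the narrowest gap was between WT sibling replicate 2 and mutant replicate 2. The mean went from 4.54 ± 0.789 to 8.47 ± 1.71 FPKM (SD, n = 3 libraries per group), a 1.87-fold difference. The log2 difference was 0.77 (SE 0.173, 95% interval 0.36 to 1.17), with adjusted p = 0.0364 by limma and an exact permutation p = 0.1, the smallest possible. Of all genes tested, 7.27% had a larger log2 difference in either direction. Leaving out single libraries kept the direction but not always the call, with adjusted p = 0.103 without WT sibling replicate 1, 0.134 without mutant replicate 1, 0.0639 without mutant replicate 2 and 0.137 without mutant replicate 3 by limma. It was 0.0402 without WT sibling replicate 2 and 0.0162 without WT sibling replicate 3. After median-of-ratios scaling the log2 difference was 0.60, with adjusted p = 0.0618 by limma.

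The other EGR gene among the members, egr2a (ENSDARG00000044098), belongs to the Krox20 branch of the family, which is known for its part in patterning the hindbrain. It was the lowest of the 8, at 0.725, 0.519 and 0.395 FPKM in WT siblings and 0.552, 0.480 and 0.545 FPKM in mutants. The 3 mutants lay inside the range of the WT siblings, and the log2 difference was -0.014 (SE 0.118, 95% interval -0.29 to 0.26), with adjusted p = 0.941 by limma. Its sign changed under some settings, among them when WT sibling replicate 1 or mutant replicate 2 was left out.

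Outside the 8, the family has 3 further genes with a row, of which egr2b and egr3 were chosen for mention after their values were seen. The gene egr4, which encodes a further zinc finger factor of the family, fell in the mutants, with 1.55, 1.93 and 1.91 FPKM in WT siblings and 0.879, 1.16 and 0.905 FPKM in mutants. The groups did not overlap, and 11.7% of all genes had every mutant library below every WT sibling library. The log2 difference of egr4 was -0.50 (SE 0.125), with adjusted p = 0.0467 by limma. With 1 library left out this became 0.0307 without WT sibling replicate 3 and 0.0842 to 0.162 without any other library, so the call was lost in 5 of these 6 fits. The paralogue egr2b was at 0.710, 0.846 and 1.38 FPKM against 1.34, 0.962 and 1.03 FPKM, a log2 difference of 0.10 with adjusted p = 0.659 by limma. Another gene of the family, egr3, was at 1.32, 1.12 and 1.23 FPKM against 1.56, 1.36 and 1.23 FPKM, a log2 difference of 0.10 with adjusted p = 0.554 by limma, and the sign of both turned after median-of-ratios scaling. So of the 5 EGR genes listed, egr1 was called higher, egr4 was called lower and 3 were not called. Among all genes tested 8.23% were called higher and 3.98% lower, and 5 genes are too few to compare with these shares. Under 17 other settings of filter, pseudocount, scaling, model and libraries, egr1 kept its call in 9 and egr4 in 6.

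The FOS members encode partners of JUN proteins in the AP-1 dimer. The gene fosab (ENSDARG00000031683), the zebrafish gene long used as a mark of neuronal activity, was at 5.52, 6.67 and 4.44 FPKM in WT siblings and 9.21, 7.06 and 5.43 FPKM in mutants. Mutant replicates 1 and 2 were above all WT siblings, and mutant replicate 3 lay below 2 of them. The mean was 5.54 ± 1.11 against 7.24 ± 1.90 FPKM, and the log2 difference of 0.32 (SE 0.202, 95% interval -0.15 to 0.79) was not called, with adjusted p = 0.286 by limma and an exact permutation p = 0.3. The paralogue fosaa (ENSDARG00000040135) was at 1.33, 1.99 and 0.362 FPKM in WT siblings and 0.901, 1.48 and 1.47 FPKM in mutants. Its highest and its lowest value both came from WT siblings, a range of 5.49-fold inside 1 group. The log2 difference was 0.10 (SE 0.286, 95% interval -0.57 to 0.77), with adjusted p = 0.819 by limma, and it became -0.22 when WT sibling replicate 3, the lowest library, was left out.

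The JUN members encode the other side of the dimer, and JUNB proteins are often weaker activators than JUN itself. The gene junbb (ENSDARG00000104773) varied least for its level, at 13.7, 12.6 and 14.4 FPKM in WT siblings and 13.6, 13.8 and 14.8 FPKM in mutants. The groups lay over one another, at 13.6 ± 0.907 and 14.0 ± 0.635 FPKM, and the log2 difference of 0.048 (SE 0.0914) had the narrowest 95% interval of the 8 genes, from -0.17 to 0.26. Its adjusted p was 0.726 by limma, and its sign turned after median-of-ratios scaling, to -0.13. The gene junba (ENSDARG00000074378) was at 4.05, 5.09 and 4.28 FPKM in WT siblings and 5.97, 3.37 and 3.72 FPKM in mutants. Mutant replicate 1 was the highest of the 6 libraries and mutant replicates 2 and 3 the lowest, so the mutants spanned the WT siblings. The log2 difference was -0.058 (SE 0.195, 95% interval -0.52 to 0.40), with adjusted p = 0.849 by limma.

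The IER2 proteins are short nuclear proteins whose genes respond to growth factors. The gene ier2a (ENSDARG00000099195) was the highest of the 8, at 17.3, 18.4 and 20.2 FPKM in WT siblings and 15.9, 19.3 and 13.2 FPKM in mutants. Mutant replicates 1 and 3 were below all WT siblings, and mutant replicate 2 was above 2 of them. The mean was 18.6 ± 1.45 against 16.1 ± 3.09 FPKM, a log2 difference of -0.21 (SE 0.143, 95% interval -0.55 to 0.13) with adjusted p = 0.318 by limma. The row named IER2 (ENSDARG00000086881), which has the gene ID of ier2b, was at 11.4, 8.69 and 9.35 FPKM in WT siblings and 14.0, 11.6 and 13.1 FPKM in mutants. Its 3 mutants were above its 3 WT siblings, by little for WT sibling replicate 1 and mutant replicate 2, and the groups overlapped after median-of-ratios scaling. The log2 difference was 0.36 (SE 0.128, 95% interval 0.064 to 0.66), with adjusted p = 0.0944 by limma, which is not a call. The ratio of IER2 to ier2a was 0.660, 0.473 and 0.463 in WT siblings and 0.882, 0.597 and 0.997 in mutants, and the groups overlapped (exact permutation p = 0.2).

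The gene atf3 (ENSDARG00000007823) encodes a bZIP factor that is induced by many kinds of stress and acts mostly as a repressor. It was at 3.33, 4.21 and 3.65 FPKM in WT siblings and 3.71, 4.74 and 4.34 FPKM in mutants. Mutant replicates 2 and 3 were above all WT siblings, and mutant replicate 1 was not. The log2 difference was 0.15 (SE 0.134, 95% interval -0.16 to 0.47), with adjusted p = 0.429 by limma and an exact permutation p = 0.2, and it was -0.0010 after median-of-ratios scaling. A p above the threshold does not show that these 7 genes were unchanged, and their intervals reach from -0.57 to 0.79 on the log2 scale.

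**Figure D2:**
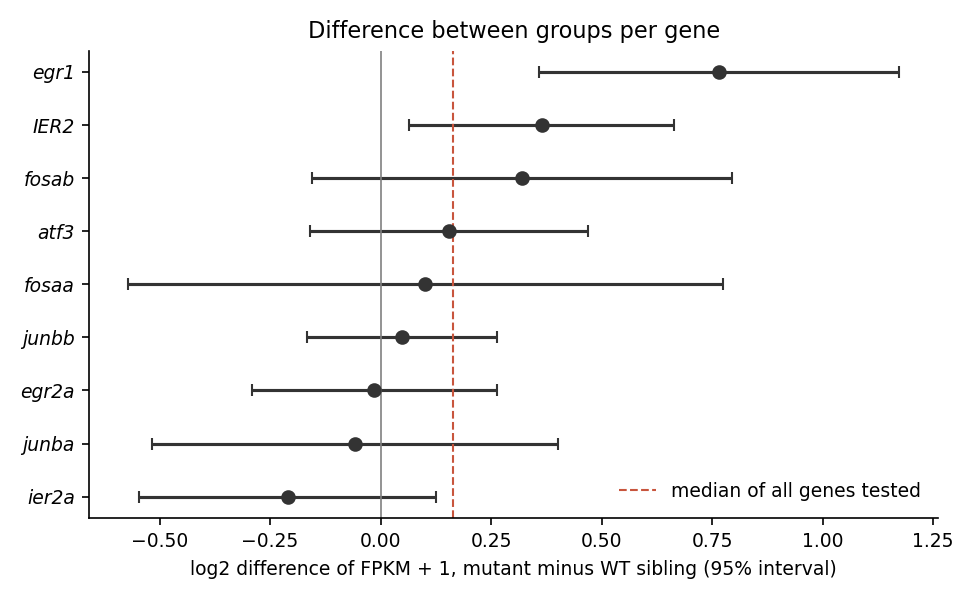
Log2 difference of each immediate early gene and of the row named IER2, mutant minus WT sibling on the log2(FPKM + 1) scale, with its 95% interval from limma and the median of all genes tested, 0.16, as a line. The interval of egr1, 0.36 to 1.17, lies wholly above the line, and those of the other 7 members cross 0, while that of IER2, which is not called, runs from 0.064 to 0.66.

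Ordered by mean FPKM over the 6 libraries, ier2a came first, followed by junbb, egr1, fosab, junba, atf3, fosaa and egr2a. Of all genes listed, 81.1% were lower than ier2a, 58.2% lower than egr1, 44.9% lower than atf3 and 4.27% lower than egr2a. Pooled over the 6 libraries, the ranges of most neighbours in this order overlapped. The libraries of junbb were all above those of egr1, and those of atf3 all above those of fosaa, while the other 5 neighbouring pairs overlapped. Compared within each library, fosab was above junba in 6 of 6. There ier2a was above junbb in 5, fosaa above egr2a in 5 and junba above atf3 in 4. Levels of egr1 and fosab were the closest, with egr1 above fosab in 1 of the 6 libraries.

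Shares and ratios within a library do not depend on how libraries were scaled to one another. The 8 genes summed to 49.8, 54.9 and 52.1 FPKM in WT siblings and 58.6, 56.9 and 53.4 FPKM in mutants, and the groups overlapped (exact permutation p = 0.2). Without egr1 the sums were 47.7 ± 1.76 and 47.8 ± 3.80 FPKM (exact permutation p = 0.9, n = 3 libraries per group). Unlike shares and ratios, sums of FPKM do depend on how the libraries were scaled. Median-of-ratios scaling lowers every mutant library relative to every WT sibling library, and the sums were not recomputed after it. The near-equal sums without egr1 are therefore a result for FPKM as deposited only. The share of egr1 in the sum was 7.79%, 9.86% and 8.30% in WT siblings and 15.1%, 11.6% and 18.7% in mutants. Every mutant share was above every WT sibling share, with means of 8.65% ± 1.08 and 15.1% ± 3.53 and an exact permutation p = 0.1, the smallest possible. The share and the ratios of egr1 reuse the values that gave its call, so they are no separate support for it. The ratio of egr1 to junbb was 0.284, 0.429 and 0.300 in WT siblings and 0.650, 0.479 and 0.675 in mutants, without overlap. Ratios of egr1 to atf3, to ier2a and to egr2a also did not overlap (exact permutation p = 0.1 each), whereas the ratio of egr1 to fosab did, at 0.703, 0.811 and 0.974 against 0.957, 0.935 and 1.84 (exact permutation p = 0.3). The ratio of egr1 to IER2 overlapped as well, at 0.339, 0.623 and 0.462 against 0.630, 0.571 and 0.759 (exact permutation p = 0.2). Ratios of egr1 to fosaa and to junba were not computed. The ratio of fosab to junba was 1.36, 1.31 and 1.04 against 1.54, 2.09 and 1.46, without overlap (exact permutation p = 0.1). In all 21 sums, shares and ratios were computed, and with 3 libraries against 3 none can pass a correction over them.

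**Figure D3:**
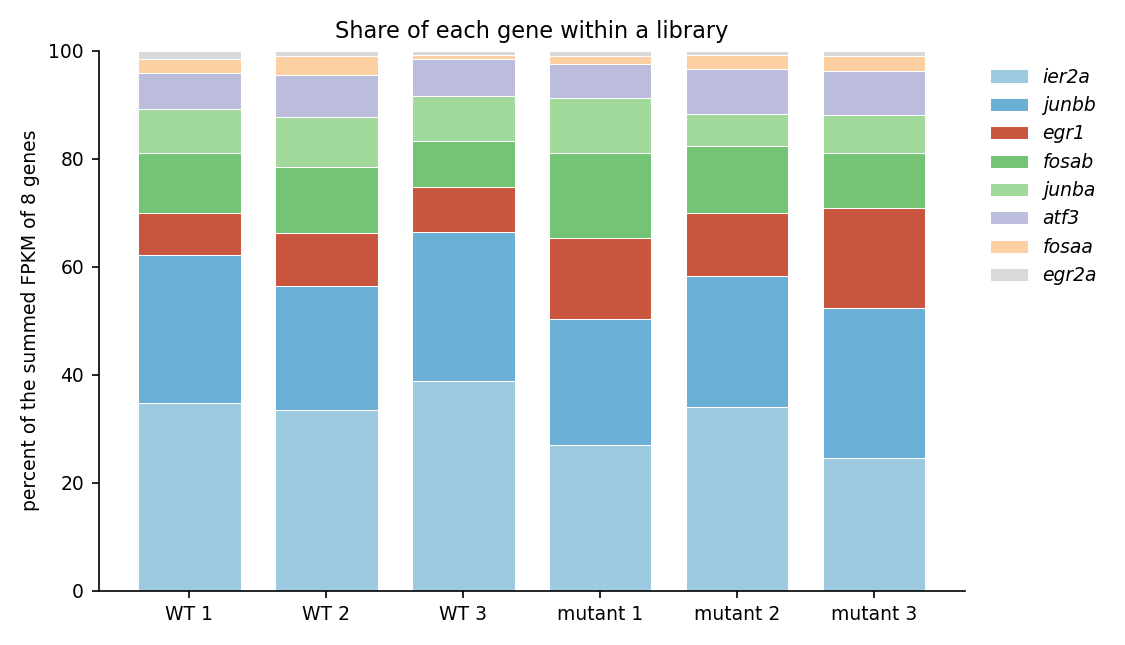
Share of each immediate early gene in the summed FPKM of the 8 genes, in percent, for the 6 libraries. The share of egr1 is 7.79% to 9.86% in WT siblings and 11.6% to 18.7% in mutants, and ier2a and junbb together make up most of the sum in each library.

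The 8 genes did not move as a block from library to library. Over the 28 pairs, Pearson's r of log2(FPKM + 1) over the 6 libraries ranged from -0.75 to 0.54 with a median of -0.064, and 13 of the 28 were above 0. With the group means removed it ranged from -0.91 to 0.74 with a median of -0.12. These are descriptions over 6 points that share libraries. WT sibling replicate 3 was the lowest of the 6 libraries for 3 of the 8 genes and the highest for 1, so that the library that stood apart was not low for the whole set. The genes most like the mean profile of the members were aff3, with r = 0.996, fhl2b with 0.994 and kaznb with 0.993, followed by mapre3b, bbs2, si:ch211-196f19.1, btr18 and senp7b, the last at 0.991. Their r is the highest among 18432 genes over 6 points, and none of the 8 was called between the groups.

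Other genes of the AP-1 family were read from a list of 12 symbols, of which 7 had a row and 6 were tested. None was called, and 2, or 33.3%, lay wholly above the WT siblings, against 35.0% of all genes. After median-of-ratios scaling 0 lay wholly above and 1, or 16.7%, wholly below, against 21.1% and 21.2% of all genes. As deposited the median log2 difference was 0.23, against 0.16 for all genes. At an unadjusted p under 0.05 by limma 2, or 33.3%, were higher and 0 lower, against 26.0% and 9.21% of all genes. The gene fosl2, which encodes a FOS-related partner of JUN, was at 1.90, 2.70 and 1.92 FPKM in WT siblings and 3.37, 2.78 and 3.57 FPKM in mutants, with a log2 difference of 0.42 (SE 0.151) and adjusted p = 0.0975 by limma. The gene jdp2a, which encodes a repressor that dimerizes with JUN, was at 0.865, 0.587 and 0.258 FPKM against 0.986, 1.05 and 1.41 FPKM, with a log2 difference of 0.47 and adjusted p = 0.104 by limma. Both sets of groups were apart as deposited and overlapped after median-of-ratios scaling. The gene jun itself was at 35.2, 35.4 and 4.20 FPKM in WT siblings and 37.0, 6.47 and 34.1 FPKM in mutants. WT sibling replicate 3 and mutant replicate 2 were far below the other libraries of their groups, and the log2 difference of 0.18 had an SE of 0.902 and adjusted p = 0.899 by limma. Without WT sibling replicate 3 it was -0.75. A gene outside the lists, jund, was chosen for mention after its values were seen, and it was at 3.44, 3.85 and 4.24 FPKM in WT siblings and 3.37, 3.75 and 4.08 FPKM in mutants, with adjusted p = 0.868 by limma.

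**Figure D4:**
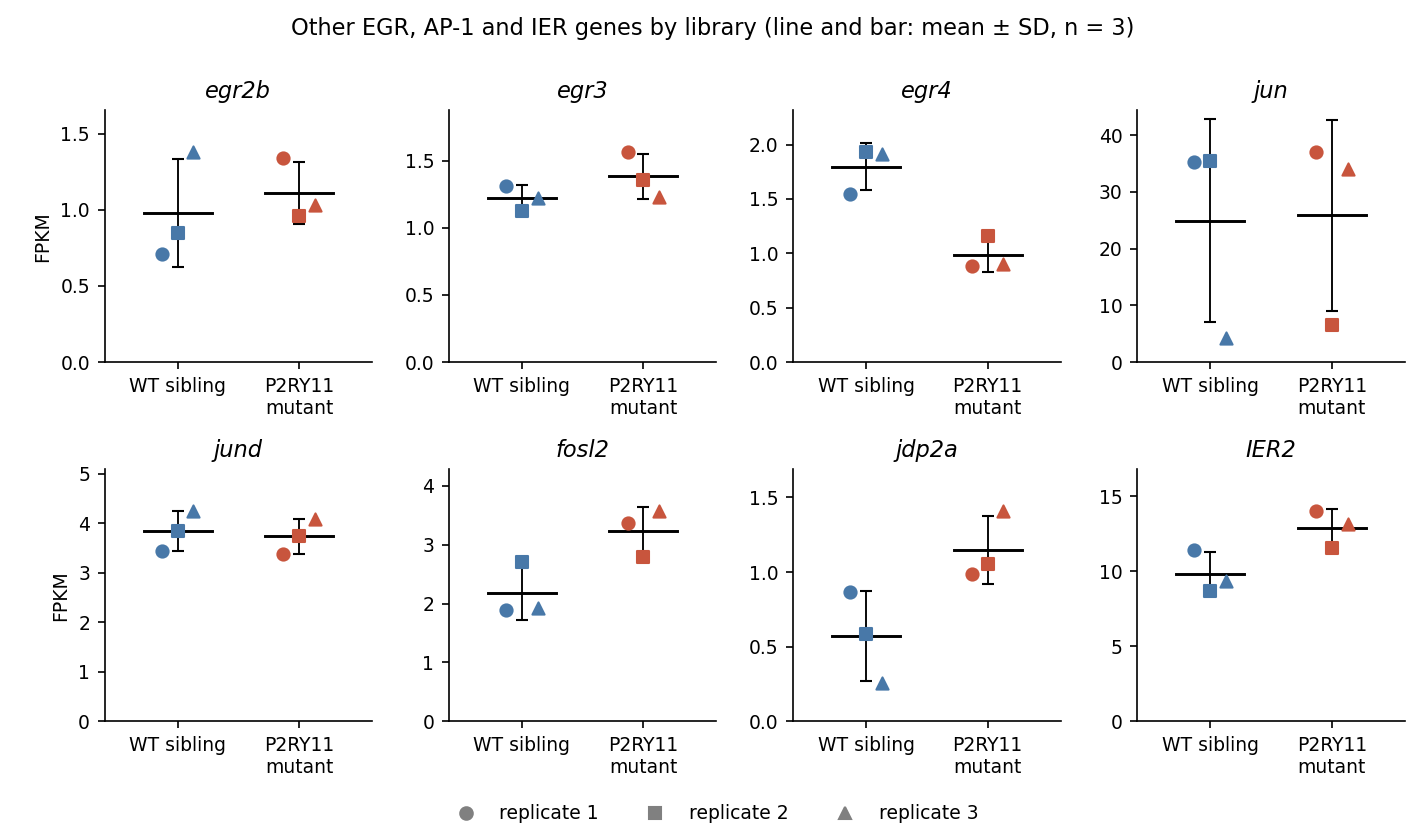
FPKM of the relatives of the immediate early genes in each library, for EGR and AP-1 family genes outside the 8 and for the row named IER2, with a line at each group's mean and an error bar of 1 SD (n = 3). The 3 mutants of egr4 lie below its 3 WT siblings, and jun shows 1 low library in each group, at 4.20 FPKM and 6.47 FPKM.

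A wider list of other immediate early genes held 68 symbols, of which 62 genes were tested. Of these 2 rose and 3 fell, or 3.23% and 4.84% of those tested, against 8.23% and 3.98% of all genes, and their median log2 difference was 0.025, against 0.16 for all genes. The balance of these calls moved with the scaling, to 0 higher and 6 lower with median-of-ratios scaling, 1 and 7 with quantile normalization and 6 and 1 rescaled to TPM, and it was 0 and 1 with a replicate block. Of all 18432 genes, 668 were called higher and 1050 lower with median-of-ratios scaling, and 987 and 1304 with quantile normalization. Rescaled to TPM these counts were 1768 and 526, and with the replicate block 672 and 404. The number wholly above the WT siblings was 14, or 22.6%, against 35.0% of all genes, and it became 5, or 8.06%, after median-of-ratios scaling, against 21.1%. The number wholly below the WT siblings was 9, or 14.5%, against 11.7% of all genes, and it became 23, or 37.1%, after median-of-ratios scaling, against 21.2% of all genes. The strongest fall was in gadd45gb.1, whose product responds to DNA damage and stress and binds MAP kinase kinases in mammals, at 58.6, 57.6 and 84.3 FPKM in WT siblings and 36.6, 34.2 and 29.2 FPKM in mutants. The groups did not overlap, and the log2 difference was -0.97 (SE 0.164, adjusted p = 0.0174 by limma). The gene cebpd, which encodes a bZIP factor of acute-phase and myeloid cells, was at 61.6 ± 7.48 FPKM in WT siblings and 44.3 ± 4.01 FPKM in mutants (SD, n = 3), and its log2 difference was -0.46 (adjusted p = 0.0434 by limma). The gene plk3, which encodes a stress-responsive polo-like kinase, rose from 12.8, 13.4 and 13.0 FPKM to 20.0, 17.7 and 18.8 FPKM, and its log2 difference was 0.50 with an SE of 0.0857 (adjusted p = 0.0186 by limma). The gene zfp36l1b, which encodes a protein that marks AU-rich transcripts for decay, rose by 0.37 (SE 0.0953) with adjusted p = 0.0499 by limma, at the threshold. By limma 0 genes of this list were called without WT sibling replicate 1 or without any 1 of the mutants. In these fits 117 to 215 of all 18432 genes were called higher and 76 to 162 lower. Without WT sibling replicate 2, 1 was higher and 1 lower, against 1353 and 540 of all genes. Without WT sibling replicate 3, 10 were higher and 6 lower, against 3712 and 1495 of all genes. Without that library and with median-of-ratios scaling 4 were higher and 13 lower, against 2019 and 2569 of all genes. With quantile normalization instead it was 7 and 10, against 2226 and 2132. At an unadjusted p under 0.05 by limma, with all libraries, 13, or 21.0%, were higher and 7, or 11.3%, lower, against 26.0% and 9.21% of all genes.

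Sprouty proteins and dual specificity phosphatases of MAP kinases, many of which damp the pathway that induces these genes, were read from a list of 16 symbols with 14 genes tested. The gene dusp3a, which encodes a small dual specificity phosphatase, rose from 2.48, 3.01 and 1.32 FPKM in WT siblings to 4.27, 4.65 and 4.96 FPKM in mutants, and its log2 difference was 0.82 with an SE of 0.209 (adjusted p = 0.048 by limma). Its adjusted p was 0.101 without WT sibling replicate 1 and 0.135 to 0.163 without any 1 of the mutants. Its call held in 7 of 17 other settings. With a pseudocount of 0.1 or 0.5, rescaled to TPM or with median-of-ratios scaling, 0 genes of this list were called higher. The gene dusp3a was the 1 call among the 14, or 7.14% higher and 0 lower, against 8.23% and 3.98% of all genes. This share was near the background. The others were not called, among them spry2, at 28.9, 31.4 and 32.1 FPKM against 26.3, 23.9 and 24.9 FPKM, with a log2 difference of -0.29 and adjusted p = 0.0627 by limma. The median of the list was 0.069, against 0.16 for all genes. The kinases and transcription factors that act upstream, a list of 45 symbols with 41 genes tested, gave no call in the limma test, while 16, or 39.0%, were higher and 0 lower at an unadjusted p under 0.05, against 26.0% and 9.21% of all genes. By the study's thresholds 11, or 26.8%, were higher, against 15.0% of all genes. Their median log2 difference was 0.36, against 0.16 for all genes, and 21 of the 41, or 51.2%, lay wholly above the WT siblings, against 35.0% of all genes. After median-of-ratios scaling 12, or 29.3%, did so, against 21.1% of all genes. The median log2 difference was then 0.20, against 0.012 for all genes. Without WT sibling replicate 3 it was 0.24, against 0.11 for all genes. In an ordinary linear model with a library covariate it was 0.070, against 0.025 for all genes. Without WT sibling replicate 3 the limma test called 10 of the 41 higher, against 3712 of all 18432 genes. Without WT sibling replicate 2 it called 1 higher, against 1353 of all genes. Rescaled to TPM it called 3 higher, against 1768 of all genes. Without WT sibling replicate 3 and with median-of-ratios scaling it called 2 higher and 2 lower, against 2019 and 2569 of all genes. With quantile normalization instead it called 2 and 1, against 2226 and 2132. The kinase gene mapk8b, of the JNK group, was at 2.36, 2.77 and 1.09 FPKM in WT siblings and 4.14, 4.52 and 3.65 FPKM in mutants (log2 difference 0.77, adjusted p = 0.0669 by limma). The gene elk4, which encodes a ternary complex factor that binds with SRF, was at 0.738, 0.588 and 0.430 FPKM against 0.964, 1.42 and 1.14 FPKM (log2 difference 0.46, adjusted p = 0.066 by limma).

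**Figure D5:**
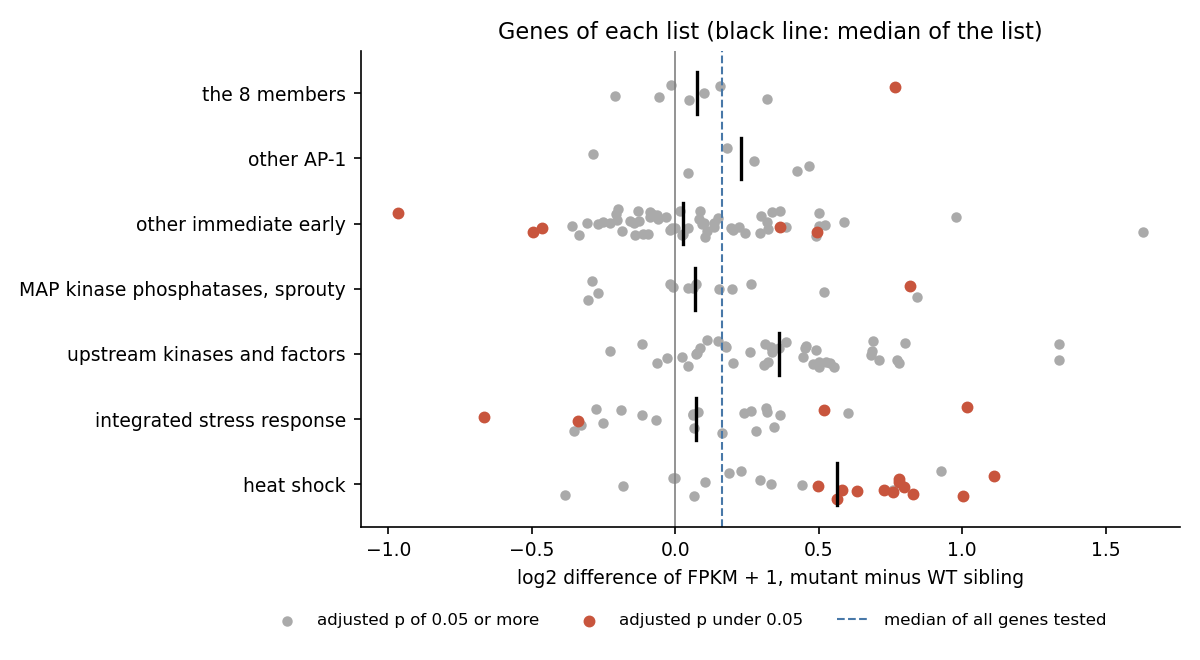
Log2 differences, mutant minus WT sibling, of the genes in each list, with 1 point per gene tested, red where called by limma and grey where not, and a black line at the median of each list. The median is 0.074 for the 8 immediate early genes, 0.36 for upstream kinases and transcription factors and 0.56 for heat shock genes, against 0.16 for all genes.

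Genes of the integrated stress response, in which ATF4 drives atf3 and amino acid genes in mammals, were read next. Of 24 tested, 2 rose and 2 fell, or 8.33% each, against 8.23% and 3.98% of all genes, with a median log2 difference of 0.073. With median-of-ratios scaling 1 was called higher and 3 lower, against 668 and 1050 of all 18432 genes. Without WT sibling replicate 3 it was 6 and 3, against 3712 and 1495 of all genes. The gene asns, which encodes asparagine synthetase, rose from 5.74, 5.90 and 4.31 FPKM in WT siblings to 10.5, 13.2 and 11.6 FPKM in mutants (log2 difference 1.02, SE 0.143, adjusted p = 0.0103 by limma). The gene atf4a fell from 105, 115 and 100.3 FPKM to 74.8, 67.8 and 59.1 FPKM (log2 difference -0.66, SE 0.108, adjusted p = 0.016 by limma). The calls of asns and atf4a were lost without mutant replicate 2 (adjusted p = 0.0592 and 0.0731 by limma) and mutant replicate 3 (0.0627 and 0.0732), and that of atf4a also without WT sibling replicate 1 (0.0575). The other called genes were eif2ak2, which encodes the kinase PKR and measured below 1 FPKM in all libraries, at 0.52 with adjusted p = 0.0469, and slc3a2b, which encodes an amino acid transporter subunit, at -0.34 with adjusted p = 0.0355, both by limma, and neither was called without WT sibling replicate 1 (adjusted p = 0.115 and 0.0975 by limma) or without any 1 of the mutants, nor slc3a2b without WT sibling replicate 2 (0.0664). Heat shock genes were read as a second stress class, and 12 of 25 rose, or 48.0% against 8.23% of all genes, with 0 lower by limma and 1 lower at an unadjusted p under 0.05. Among them hsp90aa1.2, which encodes an inducible HSP90 chaperone, went from 49.2 ± 8.42 FPKM in WT siblings to 87.4 ± 3.28 FPKM in mutants (SD, n = 3), and reads of such near copies can be shared between genes. The median log2 difference of the 25 heat shock genes was 0.56. This list, like the others, was chosen with earlier results of these data known, so its share of calls is no independent result. Without any 1 of the mutant libraries 2 to 3 of the heat shock genes were called higher, and without WT sibling replicate 1 it was 5. Of all 18432 genes tested, 117 to 165 and 215 were called higher in these fits. With median-of-ratios scaling 8 of the 25 were called higher, against 668 of all genes.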

How the data were processed

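Whole larvae at 3 days post fertilization were sequenced as 3 libraries of p2ry11 mutants and 3 of WT siblings. The authors trimmed reads with cutadapt 1.17, checked them with FastQC 0.11.7, aligned them with HISAT2 2.1.0, assembled abundances with StringTie 1.3.3 and deposited Ballgown's FPKM per gene for each library. The build is given as GRCz11 in the study's methods and as GRCh37 in the submitters' processing notes, so no coordinates are printed. The unit header is blank in 2 of the 6 tables, those of WT sibling replicates 2 and 3. Their values were taken as FPKM, the unit given for WT sibling replicate 1 and the 3 mutants, so the missing unit falls in the WT group only. FPKM holds no read counts, so depth and counting error are unknown, and it moves with the few most abundant genes of a library. Reads of near copies can be shared between genes.

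Values were tested as log2(FPKM + 1) with limma 3.58.1 in R 4.3.3 (empirical Bayes with trend), with Benjamini-Hochberg adjustment over the 18432 genes of mean FPKM at least 0.5, and the script was tested on simulated data. For differential expression the study's methods give a fold and a p threshold without naming the test, so limma was used. Exact permutation tests were run with SciPy 1.17.1. Replicate numbers were not used to pair the samples in the main fit, since the labels do not say whether same-numbered libraries belong together. The deviations of same-numbered libraries correlated at 0.016, 0.072 and 0.14, and those of differently numbered libraries at -0.13 to 0.11. With 3 libraries per group these values cannot show whether the samples were paired. Named genes were all members, p2ry11, the 8 genes most like the members' mean profile, and up to 6 genes with the smallest p of each list, with others said to be chosen after their values were seen. The members and lists were chosen with earlier results of these data known. List symbols were matched by name in the tables and then by gene ID symbol and RefSeq synonym (assembly GRCz12tu), a step added after values were seen. Sequences and promoters of the members were not analysed here. Counts of calls, list medians and the log2 differences of 54 genes were recomputed under 17 other settings of filter, pseudocount, scaling, model and libraries, of which 2 were chosen after seeing the data. The p2ry11 level was recomputed only with single libraries left out. Shares, ratios, sums over the members, correlations, marker sums and counts by the study's thresholds were not recomputed under these settings.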

Additional observations from a re-analysis of the deposited data

How the results depend on the processing

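Of 54 genes whose log2 difference was recomputed under the 17 alternatives, or 16 where a gene fell below the filter of 1 FPKM, 44 kept their sign throughout and 10 did not. The 54 held the 8 members, IER2, the 22 list genes already called and further genes picked by name, many for a small p. All 22 called genes kept their sign, so this count was partly set by the choice of genes. The difference of egr1 was above 0 in all 17, and its adjusted p by limma or the ordinary linear model was under 0.05 in 9. The number of genes called higher, 1517, became 668 with median-of-ratios scaling, 987 with quantile normalization, 672 with a replicate block, 0 in the ordinary linear model with a library covariate, and 117 to 3712 with 1 library left out. The number called lower, 733, became 1304 with quantile normalization, 404 with the replicate block, 0 in the ordinary linear model and 76 to 1495 with 1 library left out. It was 2569 and 2132 without WT sibling replicate 3 and with median-of-ratios scaling or quantile normalization. The ordinary linear model with 0 calls had 2119 genes higher and 1546 lower at an unadjusted p under 0.05. The number of members called higher, 1, became 0 with median-of-ratios scaling, quantile normalization, the replicate block (egr1 adjusted p = 0.0635 by limma) and the ordinary linear model, and was 0 to 1 with 1 library left out. At an unadjusted p under 0.05, 1 member was higher under each of these but the ordinary linear model, with 0, and the fit without mutant replicate 3, with 2, while 1 member was lower with median-of-ratios scaling and without mutant replicate 2. Of all 18432 genes, 2625 were then higher and 2981 lower with median-of-ratios scaling, 2838 and 2987 with quantile normalization, and 4742 and 1572 with the replicate block. With 1 library left out, 2955 to 5595 of all genes were higher and 1228 to 2192 lower. The cause of these moves was not tested. Whether same-numbered libraries belong together is not in the labels, and the block leaves fewer degrees of freedom.

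Differences that changed sign, in log2 units, were not called in any setting. With median-of-ratios scaling they were junbb (-0.13), atf3 (-0.0010), egr2b (-0.0015) and egr3 (-0.012). With quantile normalization they were fosaa (-0.13), junbb (-0.046), atf3 (-0.056), egr2b (-0.14) and egr3 (-0.15). In the ordinary linear model they were fosaa (-0.59), fosab (-0.070), jun (-2.03) and jund (0.10). Rescaled to TPM they were junba (0.028), egr2a (0.036) and jund (0.058). With 1 library left out, the ranges were -0.22 to 0.35 for fosaa, -0.26 to 0.073 for junba, -0.086 to 0.067 for egr2a, -0.75 to 0.94 for jun and -0.093 to 0.026 for jund. Among them junba was 0.073, 0.022 and 0.017 (without mutant replicate 2, WT sibling replicate 2 and mutant replicate 3) and egr2a was 0.067 without WT sibling replicate 1 and 0.0077 without mutant replicate 2. Without WT sibling replicate 3, fosaa was -0.22, jun -0.75 and jund 0.026. Without mutant replicate 1, jun was -0.23 and jund 0.023, and without mutant replicate 3, jun was -0.17. Without WT sibling replicate 3 and with median-of-ratios scaling, fosaa was -0.30, junbb -0.048 and jun -0.90, and with quantile normalization fosaa was -0.35, egr3 -0.034 and jun -0.83. Depth is unknown, and 3 libraries a group limit the precision.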

Other observations

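The spread of jun between libraries of 1 group, noticed in the data, was set against all genes tested above a lower bound of level. This was done after the values of jun were seen, so its place among the genes found is no independent result. Of 9391 genes tested with a mean of at least 5 FPKM, 3 varied at least 4-fold inside both groups. They were jun, klf6a and NDUFA13. The gene klf6a, which encodes a Krüppel-like factor and is on the list of other immediate early genes, was at 8.58, 32.4 and 3.58 FPKM in WT siblings and 35.6, 35.1 and 7.45 FPKM in mutants. The gene NDUFA13, which encodes a subunit of respiratory complex I, was at 43.76, 10.05 and 61.40 FPKM in WT siblings and 7.68, 48.1 and 7.89 FPKM in mutants. The lowest libraries differed between the 3 genes, being WT sibling replicate 3 and mutant replicate 2 for jun, WT sibling replicate 3 and mutant replicate 3 for klf6a, and WT sibling replicate 2 and mutant replicate 1 for NDUFA13. What lies behind this spread was not tested.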
